A study of Mus musculus with 6 samples.

Results

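The genes of glycolysis and glucose uptake examined here are 34 named genes that carry glucose into the cell, break it down to pyruvate and decide whether pyruvate becomes lactate or enters the mitochondrion. All 34 were found by symbol among the 21966 genes of the table. The RNA-seq compared primary colonic tumor cells grown from adenomas of CDX2P-NLS-Cre;APC^Δ/+;ROSA26-PID mice (PID+, 3 samples, numbered 4, 7 and 26) with tumor cells from CDX2P-NLS-Cre;APC^Δ/+ mice (PID-, 3 samples, numbered 1, 2 and 3). PID is a peptide that inhibits the Group I Paks, expressed from the Rosa26 locus once Cre has acted, and Cre is driven by the CDX2 promoter. Both groups carry the same Cre and the Apc deletion, so they differ by the PID transgene and by the mice the cells came from. In the labels the PID- samples are normal and untreated, and no age is given. The deposited table holds 1 FPKM, a fragment count relative to transcript length and library size, per gene and condition, computed from the merged reads of 3 samples. Without values per sample, no difference below could be set against the spread between samples, and none has a p-value.

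Glycolysis turns glucose into pyruvate in a chain of cytosolic steps, most of which can be carried out by several isoenzymes from separate genes. Fast-growing cells, the epithelium of intestinal tumors among them, are known to take up much glucose and to release lactate, and the transcription factor HIF-1 and Myc are known to raise many of these genes together. Gapdh, an enzyme in the middle of the chain, is also a common reference for qPCR and was the one used in this study, so whether its difference between the conditions belongs to a shift of the whole pathway is the question addressed.

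Markers of epithelium were expressed in both conditions, more of them higher than lower in PID+ cells. Of 13 markers of colon epithelium, 10 had a mean FPKM of at least 1 over both conditions, 8 of them higher and 2 lower in PID+ cells, 6 at least 2-fold higher and 1 at least 2-fold lower, with a median log2 change of 1.08. The summed FPKM of the 13 was 9351 in PID+ against 5142 in PID- cells. Krt19 was the most abundant by the mean of the conditions (2469 in PID+, 2073 in PID-) and moved little, with a log2 change of 0.25, whereas Cldn7 and Epcam were at 1.77 and 1.68. Cdx1 was listed at 0 and Vil1 at 0.175 and 0.0614, while Cdx2 had 0.542 in PID+ against 8.04 in PID- cells. Markers of other cell types were low, and those of fibroblasts also moved with the condition. The 4 of 9 that reached a mean FPKM of 1 were all lower in PID+ cells, and the summed FPKM of the 9 was 3.08 in PID+ against 34.2 in PID- cells. Col1a1 was the most abundant by the mean of the conditions (2.32 and 11.9), and Lum was listed at 0 in both. Col1a2 had the largest change of them, with 0.0654 in PID+ against 11.9 in PID- cells, a log2 change of -3.60. In the muscle, endothelium and neuron lists 5 genes reached a mean FPKM of 1, and 4 of these differed at least 2-fold, 3 higher and 1 lower in PID+ cells: Kdr was at 3.33 in PID+ and 1.01 in PID- cells, Map2 at 5.99 and 1.21, Mylpf at 5.40 and 1.56, and Tubb3 at 0.296 and 2.15. The remaining gene, the muscle marker Acta2, had the highest mean FPKM of the 5 and was also lower, at 4.39 against 9.76. With a log2 value of -0.998 it just missed the 2-fold threshold, so the muscle list held 1 higher and 1 lower gene. The part of these shifts in the results below was not tested. Leukocyte markers summed to 50.96 and 45.5, almost all of it from Cd14 and Cd68, while Cd3e was listed at 0 and Ptprc, the marker of all leukocytes, was at 0.0264 and 0.00811. In RNA from a whole culture, fewer cells of a kind and less RNA per cell cannot be told apart.

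The pathway did not move as a block. Fold changes are log2 ratios of FPKM + 1 in PID+ against PID- cells, and the added 1 damps the change of weakly expressed genes. Of the 34 genes, 30 had a mean FPKM of at least 1 over both conditions and were compared, and 4 fell below it (Slc2a3, Pgam2, Eno2 and Pdk4). FPKM was higher in PID+ cells for 17 of the 30 and lower for 13, against 49.4% higher among all 11480 genes compared. The median log2 change was 0.14, against -0.01 for all genes compared, and the values ran from -1.12 (Hif1a) to 1.98 (Ldhb). At least 2-fold higher were 3 genes (Ldhb, Slc16a3 and Pdk3), where 6.00% of all genes were, and at least 2-fold lower was 1 (Hif1a), where 6.86% were. Just inside this threshold lay Hif1a at -1.12, and just outside it Pfkfb3 at 0.99, Pdha1 at -0.96 and Hk1 at -0.94. The counts rest on the scale: with total FPKM set equal, 3 genes were 2-fold higher and 3 lower, and with Gapdh set equal 1 and 8. These scalings moved the median of all genes compared by -0.09 and -0.56, and 41.8% and 15.03% of all genes were higher under them. The shares of all genes at 2-fold under them were not computed, so these counts have no background to be read against. In none of the 30 genes did the deposited intervals of the conditions lie apart, which they did, in the direction of higher FPKM, in 0.348% of all genes compared and, in the direction of lower FPKM, in 1.03%. With the 3-fold threshold of the study, 1 gene was higher (Ldhb), against 1.99% of all genes compared, and 0 lower, against 3.28%. Overlap of the intervals does not mean that the value of a condition lies inside the interval of the other.

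**Figure D1:**
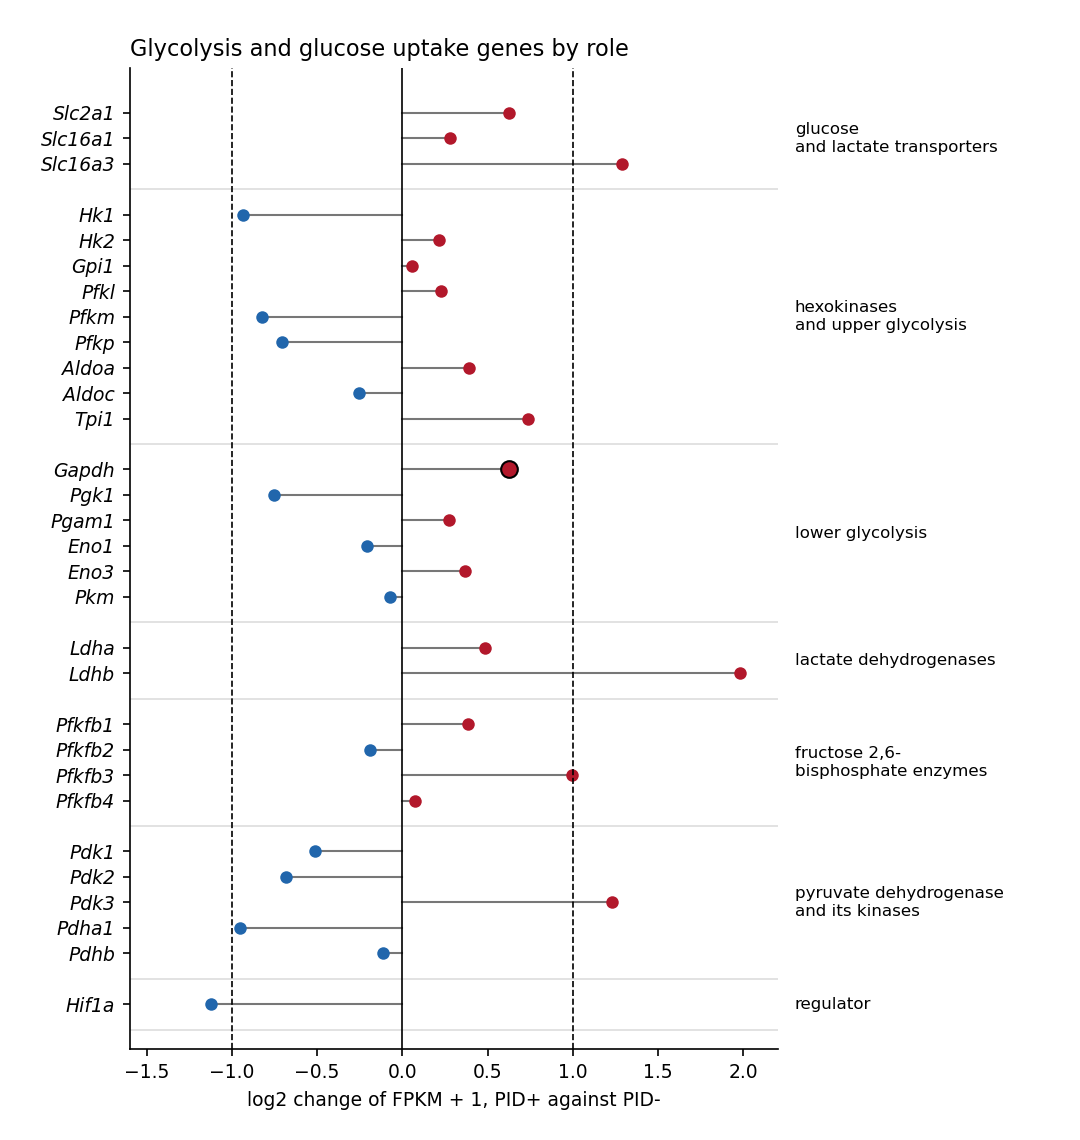
Log2 change of FPKM + 1 in PID+ against PID- cells for the 30 genes whose mean FPKM was 1 or more, grouped by role, with 1 point per gene from pooled values and no error bars. Red points are higher and blue points lower in PID+ cells, the ringed point is Gapdh, and dashed lines mark a 2-fold change, which 3 genes reach on the right and 1 on the left.

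All 3 transporters that were compared had higher FPKM in PID+ cells, although Slc16a1 was lower when Gapdh was set equal. Slc2a1 (ENSMUSG00000028645.7, chromosome 4 from 119108711 to 119137983; GRCm38 here and below) encodes GLUT1, the main glucose carrier of dividing cells. Its FPKM was 67.7 in PID+ cells (29.6 to 106) and 43.5 in PID- cells (18.01 to 68.99), where the ranges are the deposited intervals, a log2 change of 0.63. Slc2a3, which encodes the neuronal carrier GLUT3, was near 0 in both conditions (0.0554 and 0.153), so GLUT1 supplied 99.9% of the FPKM of the pair in PID+ and 99.6% in PID- cells. The monocarboxylate carriers pass lactate and pyruvate across the membrane. Slc16a1 (MCT1), which works in both directions, had an FPKM of 30.8 in PID+ cells (13.4 to 48.2) and 25.2 in PID- cells (10.7 to 39.8), a log2 change of 0.28. Slc16a3 (ENSMUSG00000025161.13, chromosome 11 from 120948480 to 120960868) encodes MCT4, the carrier typical of cells that export lactate. It had an FPKM of 27.6 in PID+ cells (6.16 to 49.1) and 10.7 in PID- cells (0.592 to 20.8), a log2 change of 1.29, larger than that of Slc2a1 or Slc16a1. The share of MCT4 in the FPKM of both carriers, which no scaling of the conditions can alter, was 47.3% in PID+ and 29.8% in PID- cells. With Gapdh set equal, the log2 changes were 0.01 for Slc2a1, -0.32 for Slc16a1 and 0.69 for Slc16a3.

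The hexokinases trap glucose in the cell by phosphorylating it. Hk1, the widely expressed form, had an FPKM of 34.7 in PID+ cells (14.6 to 54.7) and 67.2 in PID- cells (28.2 to 106), a log2 change of -0.94. Hk2, the inducible form of many tumors, had 27.3 in PID+ cells (7.10 to 47.5) and 23.4 in PID- cells (4.97 to 41.8), a log2 change of 0.21 that turned to -0.38 with Gapdh set equal and to -0.13 with the median of its chromosome subtracted. The makeup of the pair thus differed: Hk2 made up 44.1% of hexokinase FPKM in PID+ and 25.8% in PID- cells, while the summed FPKM was 61.95 and 90.6. Gpi1, the isomerase of the next step, was level at 209.9 in PID+ cells (83.2 to 337) and 202 in PID- cells (82.2 to 322), a log2 change of 0.06.

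Phosphofructokinase is the committed and most regulated step of the chain. Pfkl, the liver form, was the most abundant of its genes with an FPKM of 82.8 in PID+ cells (17.1 to 148) and 70.5 in PID- cells (10.5 to 131), a log2 change of 0.23 that became -0.39 with Gapdh set equal. Pfkm, the muscle form, had 5.72 in PID+ cells (0 to 16.8) and 10.9 in PID- cells (0 to 23.7), a log2 change of -0.82. Pfkp, the platelet form, had 16.1 in PID+ cells (0 to 35.5) and 26.9 in PID- cells (0.363 to 53.4), a log2 change of -0.71. The sum over the 3 genes was nearly the same in both conditions, 105 in PID+ and 108 in PID- cells, but Pfkl supplied 79.1% of it in PID+ and 65.1% in PID- cells. Aldoa, the main aldolase, which splits the sugar into a pair of triose phosphates, had an FPKM of 747 in PID+ cells (319 to 1176) and 569.6 in PID- cells (248 to 891), a log2 change of 0.39, or -0.23 with Gapdh set equal. Aldoc, the brain form, was low at 8.63 in PID+ cells (0 to 17.9) and 10.5 in PID- cells (1.26 to 19.7), a log2 change of -0.26. Tpi1 (ENSMUSG00000023456.11, chromosome 6 from 124810586 to 124814296) interconverts the triose phosphates. Its FPKM was 446 in PID+ cells (187 to 705) and 267 in PID- cells (114 to 421), a log2 change of 0.74, the highest among the 15 enzymes compared from hexokinase to pyruvate kinase.

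The lower steps, which yield ATP, went different ways. Gapdh (ENSMUSG00000057666.15, chromosome 6 from 125161715 to 125166467) oxidizes the triose phosphate. Its FPKM was 2570.3 in PID+ cells (650.2 to 4490.4) and 1666 in PID- cells (511 to 2822), a log2 change of 0.62, which made it the gene with rank 16 by FPKM in PID+ and rank 24 in PID- cells. Pgk1 (ENSMUSG00000062070.9, chromosome X from 106187100 to 106203699), the kinase that acts directly on the product of Gapdh, was lower in PID+ cells. Its FPKM was 438 in PID+ cells (193 to 682) and 739.7 in PID- cells (308 to 1172), a log2 change of -0.76. The FPKM ratio of Gapdh to Pgk1, enzymes of consecutive steps, was 5.87 in PID+ and 2.25 in PID- cells, whereas that of Gapdh to Tpi1, the step before, was 5.77 and 6.23. These ratios do not depend on how the conditions are scaled.

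Pgam1, the mutase of most tissues, had an FPKM of 309.9 in PID+ cells (141 to 478) and 256 in PID- cells (117 to 396), a log2 change of 0.27, or -0.35 with Gapdh set equal. Pgam2, the muscle mutase, was below 1 in both conditions (0.446 and 0.179). Eno1, the main enolase, had 412 in PID+ cells (176 to 648) and 476 in PID- cells (203 to 749), a log2 change of -0.21 that turned to 0.11 with the median of chromosome 4 subtracted. The other enolases of the set were minor, and the neuronal Eno2 had 1.05 and 0.803. Of the summed FPKM of Eno1, Eno2 and Eno3, Eno1 held 98.6% in PID+ and 99.1% in PID- cells. Eno1b, a gene outside the set, is not part of this sum and had 58.6 in PID+ and 72.8 in PID- cells. Eno3, the muscle form, had an FPKM of 4.94 in PID+ cells (0 to 11.6) and 3.60 in PID- cells (0 to 9.34), a log2 change of 0.37. Pkm, the pyruvate kinase of most cells outside the liver, was level at 733 in PID+ cells (257 to 1210.2) and 770.2 in PID- cells (301 to 1239.5), a log2 change of -0.07; its splice forms cannot be separated in gene-level values. Over the 14 enzymes compared from hexokinase to pyruvate kinase other than Gapdh, 7 were higher and 7 lower, with a median log2 change of -0.01. Their summed FPKM, with the low genes included, was 3478 in PID+ and 3495 in PID- cells, so the chain taken without Gapdh differed little in abundance, while the total over all genes was 585869.7 and 545309.6.

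Both lactate dehydrogenase genes had higher FPKM in PID+ cells on the deposited scale, from very different levels, and with Gapdh set equal Ldhb alone did. Ldha, whose subunit favours the making of lactate, had an FPKM of 838 in PID+ cells (349.7 to 1326) and 599.5 in PID- cells (262 to 937), a log2 change of 0.48, or -0.14 with Gapdh set equal. Ldhb (ENSMUSG00000030246.8, chromosome 6 from 142490249 to 142507957), whose subunit is typical of heart and of cells that use lactate, had 6.83 in PID+ cells (0 to 14.5) and 0.982 in PID- cells (0 to 2.88), a log2 change of 1.98. This was the highest value of the 30 genes and was reached or passed by 0.889% of all genes compared. As the value in PID- cells was low and its interval reached 0, the size of this change leans on the pseudocount, and with 0.1 in place of 1 it was 2.68. Even so, Ldhb supplied 0.809% of lactate dehydrogenase FPKM in PID+ and 0.164% in PID- cells, and Ldha the rest.

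The Pfkfb genes encode enzymes with both a kinase and a phosphatase domain that set the level of the main activator of phosphofructokinase. Pfkfb3, the form with the strongest kinase, had an FPKM of 20.6 in PID+ cells (3.76 to 37.5) and 9.86 in PID- cells (1.37 to 18.4), a log2 change of 0.99, just short of 2-fold on this scale. Pfkfb2, best known from heart, had 24.01 in PID+ cells (4.66 to 43.4) and 27.5 in PID- cells (6.77 to 48.2), a log2 change of -0.19. The shares of these 2 genes thus lay closer together in PID+ cells, where Pfkfb3 held 32.5% and Pfkfb2 37.9% of the summed FPKM of the 4 genes, against 18.4% and 51.3% in PID- cells. Pfkfb4 was level at 11.7 in PID+ cells (2.58 to 20.9) and 11.1 in PID- cells (1.999 to 20.2), a log2 change of 0.07, which turned to -0.02 with equal total FPKM and to -0.49 with Gapdh set equal. Pfkfb1, the liver form, had 7.06 in PID+ cells (0 to 17.6) and 5.17 in PID- cells (0 to 14.01), a log2 change of 0.39, or -0.15 with Gapdh set equal.

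Pyruvate enters the mitochondrial citric acid cycle through pyruvate dehydrogenase, which the Pdk kinases switch off. Pdha1 (ENSMUSG00000031299.10, chromosome X from 160122209 to 160138413), its catalytic alpha subunit, had an FPKM of 84.02 in PID+ cells (32.6 to 135) and 164 in PID- cells (68.7 to 259), a log2 change of -0.96. Pdhb, the beta subunit of the same enzyme, had 36.4 in PID+ cells (12.7 to 60.1) and 39.4 in PID- cells (14.2 to 64.7), a log2 change of -0.11. The subunits, which assemble in equal numbers, thus differed in their change on the deposited scale, but with the median of each chromosome subtracted they were at -0.50 and -0.37. The FPKM ratio of Ldha to Pdha1 was 9.97 in PID+ and 3.66 in PID- cells. Among the kinases, Pdk1, a known target of HIF-1, had an FPKM of 44.7 in PID+ cells (8.28 to 81.1) and 64.2 in PID- cells (15.3 to 113), a log2 change of -0.51. Pdk2 was low at 2.12 in PID+ cells (0 to 5.06) and 4.01 in PID- cells (0 to 9.03), a log2 change of -0.68. Pdk3 (ENSMUSG00000035232.8, chromosome X from 93764607 to 93832201) went the other way. Its FPKM was 17.1 in PID+ cells (4.996 to 29.2) and 6.74 in PID- cells (0.0584 to 13.4), a log2 change of 1.23. Pdk4, the kinase induced by fasting, was near 0 in both conditions (0.00886 and 0.0225). The summed FPKM of the 4 kinases was 63.9 in PID+ against 74.97 in PID- cells, with Pdk3 at 26.8% and 8.98% of it and Pdk1 at 69.9% and 85.6%.

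Hif1a (ENSMUSG00000021109.10, chromosome 12 from 73901375 to 73947530) encodes the oxygen-regulated subunit of HIF-1, which is controlled mostly through the stability of the protein, a quantity not measured here. Its FPKM was 65.6 in PID+ cells (24.3 to 107) and 144 in PID- cells (60.9 to 227), a log2 change of -1.12, the lowest of the 30 genes and the only one at least 2-fold lower on this scale. In the HIF system, 9 of 10 genes were compared, 3 of them higher and 6 lower, and their median log2 change was -0.09. Besides Hif1a, 1 was at least 2-fold higher, Hif3a, an inhibitory relative of Hif1a, with an FPKM of 3.83 in PID+ cells (0 to 12.6) and 0.0989 in PID- cells (0 to 0.345), and 1 at least 2-fold lower. The lower one was Egln3, a prolyl hydroxylase that marks HIF for breakdown and is itself induced by HIF, with 8.59 in PID+ cells (1.68 to 15.5) and 65.6 in PID- cells (28.8 to 102), a log2 change of -2.80 with intervals that lay apart. Of 17 hypoxia-induced genes outside glycolysis, all of them compared, 8 were higher and 9 lower, with a median of -0.13, 0 at least 2-fold higher and 2 at least 2-fold lower (Ndrg1 at -1.58 and Stc2 at -1.59). The most abundant of them, Vegfa, was at 130.3 in PID+ against 155 in PID- cells. Neither the glycolytic genes nor these genes moved in a single direction.

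**Figure D2:**
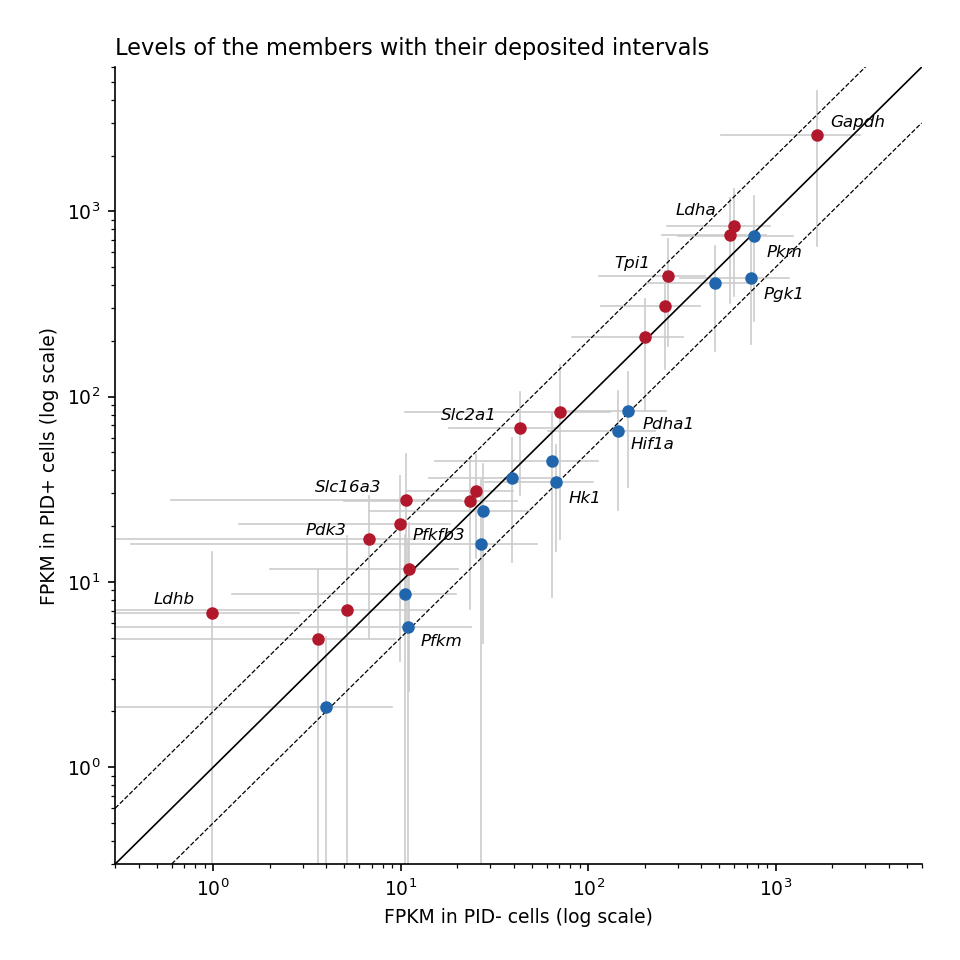
FPKM of the 30 genes in PID- cells (x axis, log scale) and PID+ cells (y axis, log scale), with grey lines for the deposited intervals of each condition, drawn down to the edge of the plot where they reach lower, and the names of some genes. Red points are higher and blue points lower in PID+ cells; the solid line marks equal values and the dashed lines a 2-fold difference in FPKM. Gapdh lies at the top right, at 2570.3 and 1666, and Ldhb, at 6.83 and 0.982, is farthest from the line of equal values.

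As a reference for qPCR, Gapdh differed more than most genes but was not extreme. A log2 change as high as that of Gapdh or higher was found in 12.97% of all genes compared and in 12 of the 142 genes whose mean FPKM was 500 or more, whose median was 0.12. The difference between Gapdh and the median of the other 29 genes of the set that were compared was 0.55 on the log2 scale, and their summed FPKM, low genes included, was 4762 in PID+ and 4651 in PID- cells. When the values were scaled so that Gapdh was equal in both conditions, as qPCR with this reference does, the median of all genes compared moved by -0.56 on the log2 scale, and 6 of the 30 glycolytic genes had higher values in PID+ cells, against 17 on the deposited scale. This scaling moves all genes alike, and 15.03% of all genes compared had higher values under it. In that scaling 10 genes of the set changed sign and the median of the set was -0.44.

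Other genes in use as references did not share the change of Gapdh. Of 20 such genes, Gapdh and Pgk1 among them, 9 were higher and 11 lower in PID+ cells on the deposited scale, and the median log2 change was -0.02; 1, Tfrc, was at least 2-fold higher (1.69). Eef1a1, the most abundant, had an FPKM of 4359 in PID+ cells (488 to 8231) and 5588 in PID- cells (613 to 10563), a log2 change of -0.36. The glycolytic Pgk1 and the X-linked Hprt, at -0.76 and -0.86, lay at the low end. Actb, at 1909 and 1433, had a log2 change of 0.41, and the FPKM ratio of Gapdh to Actb was 1.35 in PID+ and 1.16 in PID- cells.

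The genes share chromosomes, and whole chromosomes differed between the conditions. Chromosome 6 carries 7 of the 34 genes, and Eno2, Tpi1 and Gapdh lie on it within a single stretch, from 124760053 to 125166467. The 413 genes of chromosome 6 whose mean FPKM was 5 or more had a median log2 change of 0.34, and 24.7% of them reached or passed the change of Gapdh. Nearer to Gapdh, 23 of the 30 other genes compared within 1 Mb had higher FPKM in PID+ cells, and their median was 0.43. All 4 glycolytic genes of chromosome 6 that were compared (Hk2, Tpi1, Gapdh and Ldhb) had higher FPKM in PID+ cells, as had the 3 of chromosome 7 (Gpi1, Aldoa and Ldha), whose median over 646 genes was 0.25; with Gapdh set equal, Hk2, Gpi1, Aldoa and Ldha were lower instead, and Gpi1 also with equal total FPKM.

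Chromosome X, with a median of -0.45 over 286 genes, carries 4 of the set, 2 higher (Pdk3 and Pfkfb1) and 2 lower (Pgk1 and Pdha1). Over all 30 genes compared, 20 changed in the direction of the median of their chromosome, as did 61.9% of the 11450 compared over all chromosomes with a median. With that median subtracted, Gapdh was at 0.28, Tpi1 at 0.39 and Pgk1 at -0.30, and the difference between Gapdh and the median of the other genes was 0.26 in place of 0.55. The genes farthest from their chromosome were Pdk3 at 1.68, Ldhb at 1.64 and Slc16a3 at 1.25 above it, and Pfkm at -1.01 and Hif1a at -1.01 below it. What moved the chromosomes was not tested.

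**Figure D3:**
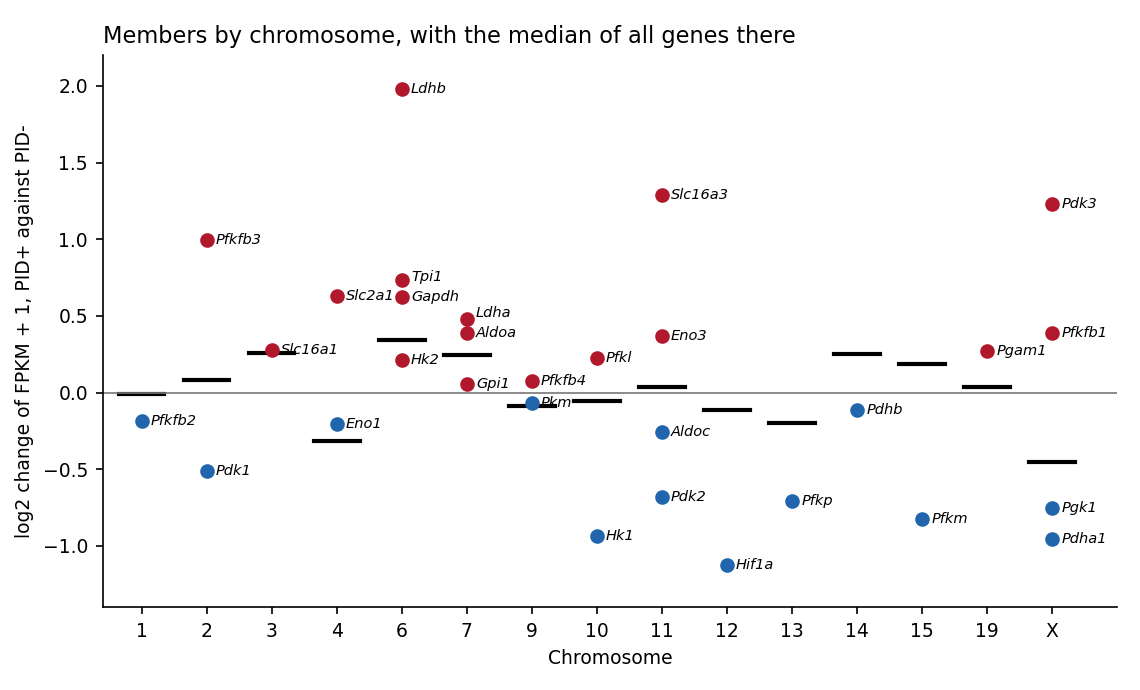
Log2 change of FPKM + 1 in PID+ against PID- cells (y axis) of the 30 genes by chromosome (x axis), with 1 point per gene, red where higher and blue where lower in PID+ cells. Black bars give the median of all genes of that chromosome whose mean FPKM was 5 or more, which is 0.34 on chromosome 6, where Gapdh and Tpi1 lie above it, and -0.45 on chromosome X, where Pgk1 and Pdha1 lie below it and Pdk3 above.

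Some of the genes are less certain because they share sequence with other genes. Of all stretches of 50 bases in the protein-coding transcripts of Gapdh, 58.4% also occurred in transcripts of other genes of the annotation, pseudogenes included, on either strand. The share was 67.96% for Pgk1, most of it with Pgk1-rs7, and 41.5% for Pgam1. For Eno1 it was 49.5%, nearly all of it with Eno1b, which the table lists as a gene of its own at 58.6 in PID+ and 72.8 in PID- cells. It was 30.3% for Pdhb, 24.97% for Pfkfb2, 24.5% for Gpi1, 23.7% for Pkm, 20.99% for Ldhb, all of it with Gm5514, 16.9% for Pdha1, 15.4% for Pfkp, 10.4% for Ldha, 8.83% for Pfkm, 8.46% for Aldoa, 6.83% for Tpi1 and 6.26% for Hif1a, below 2% for the remaining genes and 0 for some of them, Slc16a3, Hk2 and Pdk3 included. All of the share of Pfkp, and most of those of Pdha1 and Pfkfb2, was with a gene that overlaps it (Pitrm1, Map3k15 and Gm29427). How the aligner divided such reads was not tested. The kit does not mark strand, and 9 of the genes overlap another protein-coding gene: Pfkm, Pfkp, Aldoa, Tpi1, Gapdh, Pfkfb1, Pfkfb2, Pdha1 and Hif1a. The overlap of Gapdh with Iffo1 covers 68 bases and that of Tpi1 with Spsb2 34. On the same strand, that of Pfkfb2 with Gm29427 covers 26618 and that of Hif1a with Gm49321 covers 9878. These lengths are overlaps of whole genes, introns included.

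Short motifs known from HIF and Myc occurred in part of the promoters of these genes. RefSeq promoter sequences (GRCm38.p6) matched 33 of the 34 genes, with 52 start sites in all; the exception was Slc2a3. In the 250 bases before a start site, both strands were searched for ACGTG as well as the related GCGTG, the core letters of a hypoxia response element, and for CACGTG, the E-box bound by Myc, which contains ACGTG. Of the genes with a promoter, 16 had ACGTG at 1 start site or more (48.5%), 22 had GCGTG (66.7%) and 7 had CACGTG (21.2%). Among all 27025 genes with promoters the shares were 18.5%, 30.9% and 6.86%, and among the 9027 of them that were compared here 25.4%, 51.5% and 9.99%. The 30 genes of the set that were compared had 53.3%, 70% and 23.3%. A gene with more start sites has more windows to match in. Counted by start site, the shares were 38.5%, 51.9% and 13.5% in the set and 16.6%, 28.2% and 6.02% over all 32851 start sites. ACGTG was found in 9 of the 17 genes of the set with higher FPKM in PID+ cells and in 7 of the 13 with lower FPKM, nearly equal shares. GCGTG was found in 12 and 9 of them, and CACGTG in 3 and 4. A match is only a description of the letters.

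The stretches before the start sites of Gapdh and Pgk1, consecutive enzymes with opposite changes, and of Ldha and Slc16a3, which make and export lactate and were both higher on the deposited scale, are printed 5′ to 3′ on the strand of the gene, with ACGTG, the related motif GCGTG and their reverse complements in capitals. They are, from RefSeq (GRCm38.p6), chr6:125165774-125166023 on the minus strand for Gapdh, chrX:106186850-106187099 on the plus strand for Pgk1, chr7:46845554-46845803 on the plus strand for Ldha (the first of its start sites by position) and chr11:120948817-120949066 on the plus strand for Slc16a3. Gapdh had no ACGTG and 2 matches to GCGTG, while Pgk1 had 2, Ldha 5 and Slc16a3 2 matches to ACGTG. Matches were counted on both strands, so each of the 2 CACGTG of Ldha, which reads the same on either strand, gave 2 of them. The second start site of Ldha had no ACGTG and 1 match to GCGTG.
Gapdh: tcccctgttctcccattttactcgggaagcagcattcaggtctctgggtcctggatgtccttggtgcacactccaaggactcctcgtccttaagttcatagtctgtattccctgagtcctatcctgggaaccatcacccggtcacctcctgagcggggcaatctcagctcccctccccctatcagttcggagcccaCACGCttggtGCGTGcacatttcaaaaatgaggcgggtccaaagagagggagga
Pgk1: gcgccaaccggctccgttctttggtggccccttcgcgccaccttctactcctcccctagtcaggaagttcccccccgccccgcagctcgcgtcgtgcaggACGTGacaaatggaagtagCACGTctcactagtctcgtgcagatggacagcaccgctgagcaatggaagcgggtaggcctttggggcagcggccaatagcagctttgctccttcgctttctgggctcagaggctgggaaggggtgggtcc
Ldha: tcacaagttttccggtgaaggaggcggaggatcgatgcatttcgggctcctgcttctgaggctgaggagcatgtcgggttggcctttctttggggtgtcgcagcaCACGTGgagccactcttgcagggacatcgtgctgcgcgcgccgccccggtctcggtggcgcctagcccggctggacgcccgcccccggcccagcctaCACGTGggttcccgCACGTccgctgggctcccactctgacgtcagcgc
Slc16a3: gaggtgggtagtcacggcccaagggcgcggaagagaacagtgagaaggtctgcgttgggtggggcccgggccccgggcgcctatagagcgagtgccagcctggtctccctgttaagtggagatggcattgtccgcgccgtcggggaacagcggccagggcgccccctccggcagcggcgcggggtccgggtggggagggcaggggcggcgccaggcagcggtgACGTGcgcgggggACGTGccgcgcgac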

How the data were processed

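RNA-seq of 3 PID+ and 3 PID- samples was taken as deposited. The authors trimmed reads with CutAdapt, aligned them to GRCm38.p3 with TopHat, guided by protein-coding annotation, merged the reads of a condition and deposited gene-level FPKM from CuffDiff with the bounds of its confidence intervals, which cover its own error model only. The labels name 3 mice per condition, whereas the methods call the reads replicated sequencing runs, and the PID- numbers of the labels are not those of the methods. Rows called treated were read as PID+ and rows called untreated as PID-, after the labels. Both conditions had status OK in 21959 of 21966 genes. Among 5296 genes above 0 in both conditions with a mean FPKM under 2, the most frequent PID+ to PID- ratio, rounded to 2 decimals, was 1.38 (246 genes); its relation to read depth was not tested, and the depth is unknown.

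Symbols came from a reference table and positions and transcripts from Gencode M21 (GRCm38). Log2 changes used a pseudocount of 1, and genes whose mean FPKM was 1 or more were compared. With pooled values neither a test nor leaving out a sample was possible. Chromosome medians used genes whose mean FPKM was 5 or more. The members and lists were chosen with earlier results of these data known. All 34 members are given; of other lists, the genes named are the most abundant, some of the up to 4 with the largest absolute log2 change, markers at or near 0 and, chosen after its value was seen, Actb. Calculations were tested on simulated data. Python 3.11.15, numpy 2.4.6, pandas 2.3.3 and matplotlib 3.10.9 were used.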

Additional observations from a re-analysis of the deposited data

How the results depend on the processing

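The median log2 change of the set (0.14) stayed between 0.05 and 0.17 with another pseudocount, filter or scaling and with chromosome medians subtracted, apart from the scaling to equal Gapdh, where it was -0.44. With that scaling, 6 genes were higher, 1 at least 2-fold higher and 8 at least 2-fold lower, in place of 17, 3 and 1; by construction it lowers every value in PID+ cells. At least 2-fold higher were 4 genes with a pseudocount of 0.1, with equal upper quartiles or with the median of all genes set to 0, and 2 among those whose mean FPKM was 5 or more. At least 2-fold lower were 3 genes with equal total FPKM and 2 with chromosome medians subtracted. The shares of all genes at 2-fold under these other settings were not computed. With the 3-fold threshold, 1 gene was higher (Ldhb) and 0 lower, and with intervals that lie apart 0 and 0. The log2 change of Gapdh was 0.62, 0.52 with equal total FPKM and 0.28 with chromosome medians subtracted, where its difference from the median of the other genes was 0.26. Beyond the fixed threshold and the construction of the scalings, the cause of these moves was not tested. With equal total FPKM 2 genes changed sign (Gpi1 and Pfkfb4), and with chromosome medians subtracted 4 did (Eno1, Gpi1, Hk2 and Pkm). Pooled values leave the spread between samples unknown, and low values such as that of Ldhb in PID- cells have intervals that reach 0.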

Other observations

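The pathways that branch from glycolysis held 1 gene, Txnip, with a larger difference than any of the glycolytic genes. Among enzymes of glycogen and of other branches, 9 of 14 genes were compared, with 3 higher and 6 lower in PID+ cells and a median change (log2) of -0.27. Txnip, an arrestin-like protein known to hold back glucose uptake, had an FPKM of 9.44 in PID+ cells (0 to 19.5) and 116 in PID- cells (41.9 to 190.5), a log2 change of -3.49, and its deposited intervals lay apart. Gpd2, the mitochondrial enzyme of the glycerol phosphate shuttle, had 55.1 in PID+ cells (24.3 to 85.9) and 32.1 in PID- cells (14.3 to 49.8), a log2 change of 0.76. Phgdh, which draws on a glycolytic intermediate to make serine, was the most abundant at 178 and 135. In gluconeogenesis, 4 of 7 genes were compared, with 1 higher and 3 lower in PID+ cells and a median change (log2) of -0.52. Pck2, the mitochondrial carboxykinase and the most abundant of them, had 11.02 in PID+ cells (3.36 to 18.7) and 42.03 in PID- cells (18.4 to 65.6), a log2 change of -1.84, with intervals that met only at their edges. In the pentose phosphate pathway, 8 of 9 genes were compared, with 4 higher and 4 lower in PID+ cells and a median change (log2) of 0.00, and none of them reached 2-fold.

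Other glucose transporters were almost absent: 1 of 12, Slc2a8, reached a mean FPKM of 1, at 5.24 in PID+ against 6.08 in PID- cells. Of the other glycolytic isoenzymes, 8 of 17 genes were compared, with 3 higher and 5 lower in PID+ cells and a median change (log2) of -0.20. Ldhd, the dehydrogenase of D-lactate, had 3.47 in PID+ cells (0 to 8.85) and 9.46 in PID- cells (0 to 20.96), a log2 change of -1.23, and Tigar, which lowers the activator of phosphofructokinase, 9.94 in PID+ cells (2.98 to 16.9) and 5.51 in PID- cells (0.738 to 10.3), a log2 change of 0.75. In the handling of pyruvate and lactate, 10 of 12 genes were compared, with 4 higher and 6 lower in PID+ cells and a median change (log2) of -0.05. Pdp1, a phosphatase that reverses the action of the Pdk kinases, had 5.50 in PID+ cells (0.279 to 10.7) and 12.1 in PID- cells (2.99 to 21.2), a log2 change of -1.01. Its isoenzyme Pdp2 went the other way, with 5.01 in PID+ cells (0.654 to 9.37) and 2.87 in PID- cells (0 to 6.08), a log2 change of 0.64. Bsg, the chaperone of the lactate carriers, was the most abundant at 429 and 356, a log2 change of 0.27.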
